A study of Mus musculus with 12 samples.

Results

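Fcgr3, Mpeg1, Tyrobp and Laptm5 encode receptor and membrane proteins that in the brain are made chiefly by microglia. They were followed in hippocampus and cerebellum of mice that lack the DNA repair gene Ercc1. The 4 genes were chosen by name and are represented by 4 of the 45037 probe sets on the array, 1 for each gene. Those of Fcgr3 and Mpeg1 were set by their identifiers. For Tyrobp and Laptm5 every probe set that the authors' deposited lists name was taken, which gave a single one. RNA was taken at postnatal day 21 from 4 groups of 3 arrays each: hippocampus of Ercc1-/- mice (KO), hippocampus of their Ercc1+/+ littermates (WT), cerebellum of KO mice and cerebellum of WT mice. The same 3 KO and 3 WT mice gave both regions. All groups share a mixed background of FVB and C57BL/6 crosses, no group received a treatment that the labels name, and the null allele is carried by every cell of the body, so it is not restricted to the brain or to microglia. All 4 probe sets have a name only because the authors listed them as different between KO and WT cerebellum, and Mpeg1 also because it was listed for hippocampus. Their cerebellum differences are therefore a description of how they were chosen, as is that of Mpeg1 in hippocampus. The hippocampus values of Fcgr3, Tyrobp and Laptm5 did not give them their names. The set of 4 was however chosen with earlier results of these data known, so these values are not fully independent either.

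Microglia are the resident macrophages of the brain and take up dying cells, synapses and antibody-bound material. Tyrobp, also called DAP12, is a small transmembrane adaptor that carries the signal of receptors without a signalling tail of their own, such as Trem2, to the kinase Syk through an activation motif in its cytoplasmic part. Fcgr3 is a low-affinity receptor for immunoglobulin G that signals in the same manner through the common gamma chain of Fc receptors. Mpeg1, or perforin-2, is a pore-forming protein of macrophage vesicles that acts on engulfed bacteria, and Laptm5 is a membrane protein of lysosomes that is found in blood-derived cells and, in lymphocytes, directs receptors to degradation. The RefSeq annotation of GRCm38.p6 places Fcgr3 on chromosome 1, Laptm5 on chromosome 4, Tyrobp on chromosome 7 and Mpeg1 on chromosome 19. Chromosome 7 also holds Ercc1.

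The stretches of 250 bases before an annotated start are shown for the members for which RefSeq promoter windows were at hand, because PU.1, the factor that macrophages depend on, is known to bind sites around the letters GAGGAA. The sequences are from RefSeq, build GRCm38.p6, read 5′ to 3′ on the strand of the gene, and capitals mark GAGGAA or TATAAA on either strand. Fcgr3 lies on the minus strand at chr1:171059395-171059644, and Laptm5 and Mpeg1 lie on the plus strand at chr4:130913066-130913315 and chr19:12460520-12460769.
Fcgr3: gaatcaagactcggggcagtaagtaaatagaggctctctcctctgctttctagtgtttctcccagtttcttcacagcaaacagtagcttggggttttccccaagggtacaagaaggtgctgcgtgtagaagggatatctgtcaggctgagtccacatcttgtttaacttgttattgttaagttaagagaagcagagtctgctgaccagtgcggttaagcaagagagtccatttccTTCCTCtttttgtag
Laptm5: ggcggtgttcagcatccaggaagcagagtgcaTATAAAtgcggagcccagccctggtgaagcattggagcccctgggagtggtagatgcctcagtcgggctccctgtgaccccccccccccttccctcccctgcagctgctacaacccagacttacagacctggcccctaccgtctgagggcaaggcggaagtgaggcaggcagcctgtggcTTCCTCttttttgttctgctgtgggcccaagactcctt
Mpeg1: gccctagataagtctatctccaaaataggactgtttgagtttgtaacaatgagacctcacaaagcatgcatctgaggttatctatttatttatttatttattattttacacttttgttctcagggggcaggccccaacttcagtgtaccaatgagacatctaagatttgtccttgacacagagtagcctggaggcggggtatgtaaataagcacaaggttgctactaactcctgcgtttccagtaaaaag
GAGGAA was present on the opposite strand in the windows of Fcgr3, from base -15 to base -10 before the start, and of Laptm5, from base -38 to base -33. A second annotated start of Fcgr3 places the same letters at bases -6 to -1. TATAAA was present in the Laptm5 window on the gene's strand, from base -218 to base -213, and it shares no base with GAGGAA. The Mpeg1 window held neither. Of all 32851 RefSeq windows of this length, 23.3% held GAGGAA and 12.4% held TATAAA on 1 strand or the other. The longest run shared by the printed Fcgr3 and Laptm5 windows on the genes' strand was CTTCCTCTTTTT, which covers the GAGGAA match in each. It was found on either strand in 14 of the 32851 windows (0.0426%). With the other annotated start of Fcgr3 the longest run was GAAGCAGAGT, which lies outside the GAGGAA matches and was found in 32 windows (0.0974%). These runs were sought after the sequences were seen, and these letters are a description, not binding sites.

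Across the arrays, values were linear intensities made by the authors with dChip, a program that models the signals of the single probes to give 1 value per probe set. Array medians ran from 160 to 168 in hippocampus and from 154 to 168 in cerebellum, and precision is limited by the number of arrays. Ercc1 had intensities from 49.8 to 65.9 on KO hippocampus arrays against 175 to 223 in WT, and from 55.9 to 70.3 on KO cerebellum arrays against 115 to 223 in WT, so no array went against its label. In hippocampus the arrays of KO replicate 1, KO replicate 3 and WT replicate 1 stood apart from the other 3 on the first principal component, which carried 59.6% of the variance and crosses genotype. In cerebellum, KO replicate 1 stood out in the 3′ to 5′ signal of the Gapdh control probes, a ratio that rises with RNA degradation. It was 1.497 there and at most 1.20 elsewhere in cerebellum, and no such control was used for hippocampus.

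All 4 genes had the same order of group means, highest in KO hippocampus, then WT hippocampus, then KO cerebellum, and lowest in WT cerebellum. The step from WT hippocampus to KO cerebellum was free of overlap for each gene, as was that from KO to WT cerebellum. The step from KO to WT hippocampus was free of overlap for Mpeg1 and Tyrobp and not for Fcgr3 and Laptm5. A KO group wholly above WT in both regions was found for 0.825% of the 23283 probe sets measured in both. The 4 genes were chosen on the cerebellum contrast, and Mpeg1 also on that of hippocampus. The share is thus no measure of how rare their separation is. The region tables may have been normalized separately, so levels are set side by side across regions without a test. In WT mice the ratio of hippocampus to cerebellum intensity was 3.40 for Fcgr3, 2.25 for Mpeg1, 3.33 for Tyrobp and 6.04 for Laptm5. On the log2(intensity + 32) scale the median of the 4 differences between the WT regions was 1.54, beside a median of 0.32 over the 23283 probe sets measured in both regions. Of those probe sets 1.36% had a difference at least as high as that of Laptm5, 4.10% as Tyrobp, 4.93% as Fcgr3 and 11.01% as Mpeg1. In KO mice the same ratios of intensity were 2.24 for Fcgr3, 2.35 for Mpeg1, 2.47 for Tyrobp and 3.19 for Laptm5. In whole tissue, more cells of a type and more RNA per cell cannot be told apart.

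**Figure D1:**
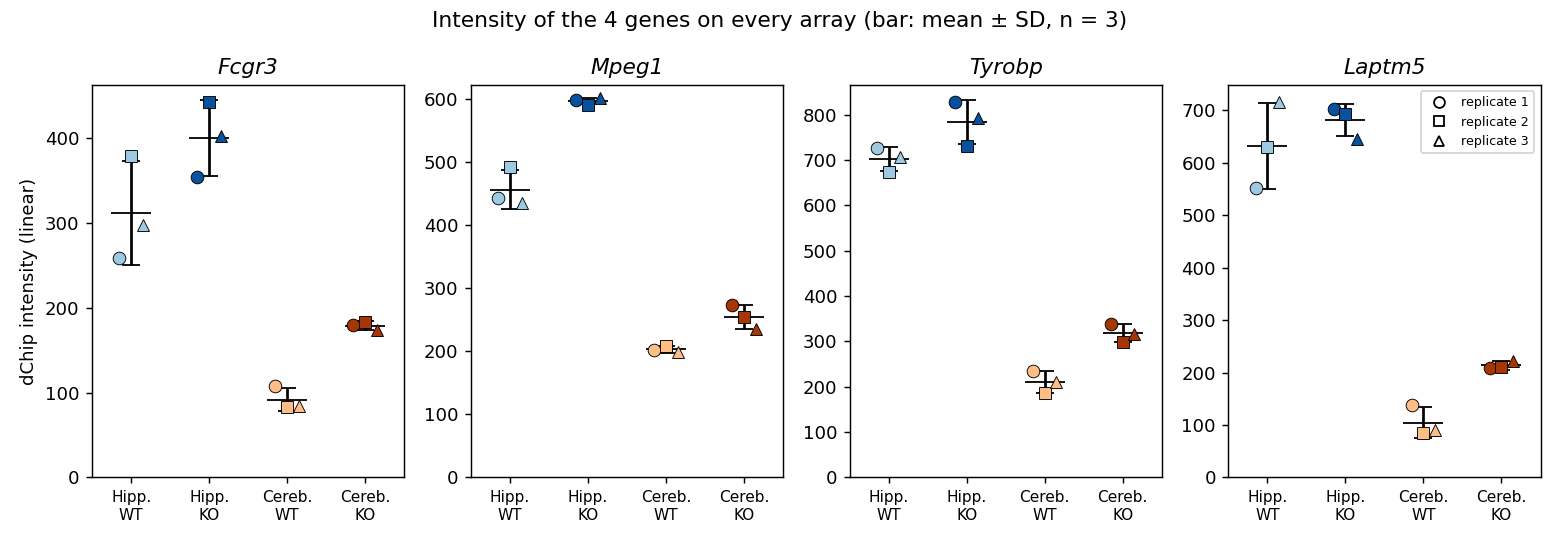
Linear dChip intensity (y axis, from 0) of each gene on each of the 12 arrays (x axis, 4 groups), with points shaped by replicate number and black bars for the mean ± SD of 3 arrays. Both cerebellum groups lie below both hippocampus groups for all 4 genes, and in cerebellum no KO point overlaps a WT point.

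In hippocampus the mean of every gene was higher in KO, by between 0.11 and 0.37 on the log2 scale, and none of the 4 passed. The comparison asks whether loss of Ercc1 goes with another level of microglial transcripts in this region. Over all 27022 probe sets limma passed 0% at an adjusted p under 0.05 (0 of 27022), 1003 (3.71%) had an unadjusted p under 0.05, and 1.53% had such a p with KO higher. Of the 4 genes only Mpeg1 did, a gene chosen on this contrast. The median log2 change of the 4 genes was 0.25, beside 0.01 over all probe sets, of which 52.6% were above 0. This median is raised by Mpeg1, while the genes not listed for hippocampus had 0.34 (Fcgr3), 0.15 (Tyrobp) and 0.11 (Laptm5).

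Tyrobp had intensities of 828, 732 and 792 in KO hippocampus (replicates 1, 2 and 3) and of 726, 675 and 708 in WT. Every KO array was above every WT array, with the lowest KO array 6.20 units above the highest WT array. The means were 784 ± 48.8 and 703 ± 25.9 (SD, n = 3 each), a ratio of 1.12. The log2 change was 0.15 ± 0.09 (SE), with a 95% interval from -0.06 to 0.37 and an adjusted limma p of 0.9999. Within the 2 sides of the arrays it was 0.15 and 0.08. The exact two-sided permutation p was 0.1, the smallest that 3 against 3 arrays allow. Every KO array lay above every WT array for 4.48% of all probe sets tested in hippocampus.

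Fcgr3 had intensities of 354, 443 and 402 in KO hippocampus and of 258, 379 and 297 in WT. The groups overlapped, since the WT array of replicate 2 exceeded the KO array of replicate 1, and 2 of 3 KO arrays were above the highest WT array. The log2 change of this antibody receptor gene was 0.34 ± 0.15 (SE), with a 95% interval from -0.02 to 0.70, and neither limma (adjusted p = 0.9999) nor the exact permutation test (p = 0.2) set it apart. It was 0.23 without WT replicate 1 and 0.48 without WT replicate 2. Within the side of the array structure with KO 1, KO 3 and WT 1 it was 0.50, and within the other side 0.37.

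Laptm5 had intensities of 704, 694 and 646 in KO hippocampus and of 552, 630 and 717 in WT. No KO array exceeded the highest WT array, so KO fell inside the WT range. The log2 change was 0.11 ± 0.12 (SE), with a 95% interval from -0.16 to 0.38 (limma adjusted p = 0.9999, exact permutation p = 0.5). It was 0.02 without WT replicate 1 and 0.20 without WT replicate 3, so its size rests on single WT arrays, and within the sides it was 0.27 and 0.04.

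Mpeg1 had intensities of 598, 592 and 602 in KO hippocampus and of 443, 492 and 435 in WT. The 3 KO arrays lay within 10.4 units of each other and the lowest of them was 99.2 units above the highest WT array. The KO mean was 597 ± 5.27 and the WT mean 457 ± 31.0 (SD, n = 3 each), and the authors' deposited table gives a fold of 1.31. The log2 change was 0.37 ± 0.09 (SE), with a 95% interval from 0.15 to 0.58 and an adjusted limma p of 0.9999. Of all probe sets, 1.08% had a log2 change at least as high. Within the 2 sides of the arrays it was 0.41 and 0.33.

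**Figure D2:**
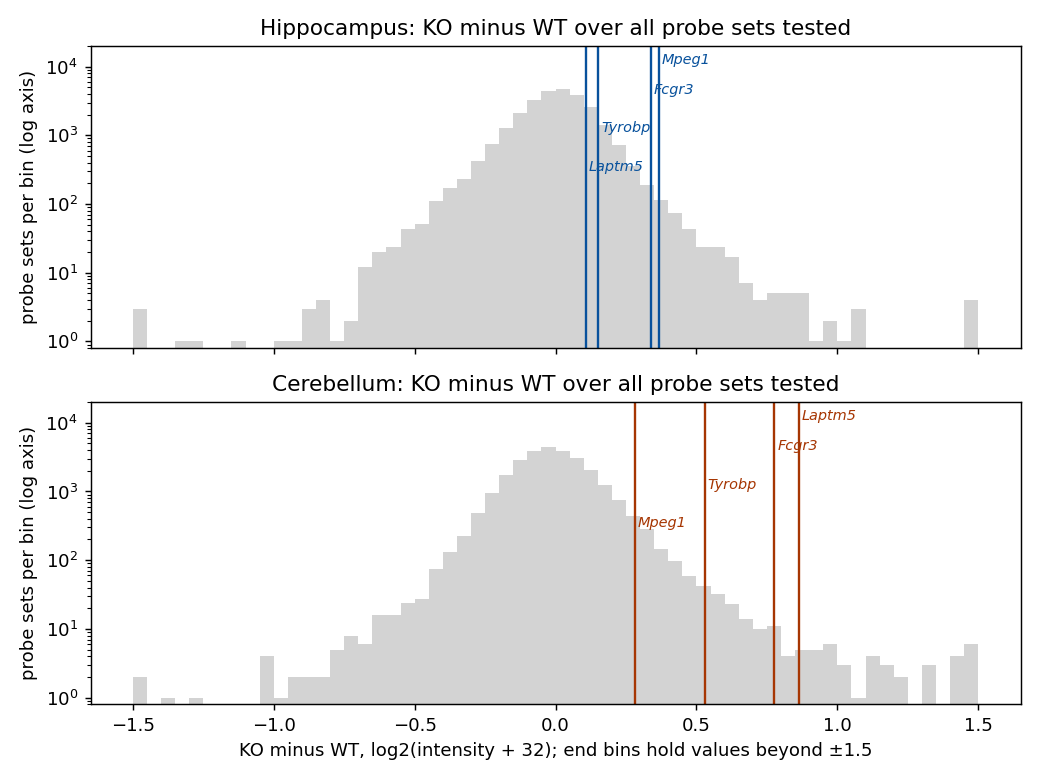
Number of probe sets (y axis, log scale) by log2 change of KO against WT (x axis) in hippocampus (top) and cerebellum (bottom), with coloured lines at the 4 genes. In hippocampus the lines lie between 0.11 and 0.37, and in cerebellum, where the genes were chosen, between 0.28 and 0.87.

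In cerebellum the KO arrays of all 4 genes lay above all WT arrays, with mean differences between 0.28 and 0.87 on the log2 scale. They were listed by the authors for this difference, so nothing is read from their count. Here 5.3% of the 27022 probe sets had every KO array above every WT array, 2.82% had KO higher at an unadjusted p under 0.05, and limma passed 0% at an adjusted p under 0.05, with 1169 (4.33%) at an unadjusted p under 0.05 in either direction. The median of the 4 genes was 0.65, beside -0.02 over all probe sets, of which 45% were above 0.

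Laptm5 had intensities of 208, 210 and 223 in KO cerebellum and of 139, 85.3 and 90.4 in WT. The KO arrays lay close together and the WT array of replicate 1 stood above the other WT arrays. The log2 change was 0.87 ± 0.15 (SE), with a ratio of means of 2.04 and an adjusted limma p of 0.422. When both regions were fitted together and shared 1 estimate of the spread, its adjusted limma p was 0.0464. In that fit 34 of the 27022 probe sets passed in cerebellum. Laptm5 was listed by the authors for this contrast and was tested only through its KO arrays, so this p is no independent evidence. Without WT replicate 1 the log2 change was 1.04.

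Fcgr3 had intensities of 180, 184 and 173 in KO cerebellum and of 107, 82.8 and 84.3 in WT. The gap between the groups was 65.7 units, while the KO arrays spanned 10.4 units. The log2 change was 0.78 ± 0.10 (SE), with a ratio of means of 1.95 and an adjusted limma p of 0.179, the lowest of the 4. In WT cerebellum the mean log2 values of Fcgr3 and Laptm5, 6.94 and 7.08, lay below the level of 7.17 that a probe set's mean over all 6 arrays had to exceed to be tested. Both were thus tested only through their KO arrays.

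Tyrobp had intensities of 339, 299 and 316 in KO cerebellum and of 235, 187 and 211 in WT. The groups were separated by 63.9 units. The log2 change was 0.53 ± 0.11 (SE), with a ratio of 1.51 (limma adjusted p = 0.492).

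Mpeg1 had intensities of 273, 254 and 236 in KO cerebellum and of 201, 209 and 199 in WT. Its gap of 27.2 units and its log2 change of 0.28 ± 0.09 (SE) were the smallest of the 4 in this region, whereas its log2 change in hippocampus was the largest (limma adjusted p = 0.997 in cerebellum). Without KO replicate 1, the array with the raised Gapdh ratio, the log2 changes in cerebellum were 0.88 for Laptm5, 0.77 for Fcgr3, 0.49 for Tyrobp and 0.24 for Mpeg1. In WT cerebellum replicate 1 had the highest intensity of the 3 arrays for Fcgr3, Tyrobp and Laptm5, and replicate 2 had it for Mpeg1.

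The regional difference of the KO effect had the same sign on the log2 and linear scales for Laptm5, Tyrobp and Mpeg1. For Fcgr3 the sign turned, to a linear difference of 0.89 ± 41.6 (SE). Relative to their SE, the differences were not alike on the 2 scales. On the log2 scale the effect was smaller in hippocampus for 3 of the 4 genes. The difference, hippocampus minus cerebellum, was -0.76 ± 0.20 (SE) for Laptm5, with a 95% interval from -1.19 to -0.33. It was -0.44 ± 0.19 for Fcgr3 (-0.85 to -0.03) and -0.38 ± 0.13 for Tyrobp (-0.67 to -0.09). For Mpeg1 it was 0.08 ± 0.12 (-0.17 to 0.34), an interval that includes 0. No member passed (0 of 4, limma adjusted p = 0.9999 for each), where 0.00429% of 23283 probe sets did. At an unadjusted limma p under 0.05 Laptm5, Fcgr3 and Tyrobp had a smaller effect in hippocampus, as did 2.19% of all probe sets. The choice of the genes on the cerebellum contrast favours this direction, so it is no independent evidence.

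In intensity units, an alternative added after the data were seen, Fcgr3 was higher in KO by 88.1 ± 40.8 (SE) in hippocampus and by 87.2 ± 10.6 in cerebellum, a difference of 0.89 ± 41.6. Tyrobp was higher by 81.7 ± 48.6 and 107 ± 22.4, and Laptm5 by 48.3 ± 55.2 and 109 ± 16.4. For Mpeg1 the order was the other way, as on the log2 scale, with 140 ± 37.7 in hippocampus and 51.3 ± 17.3 in cerebellum. On this scale the regional differences of Tyrobp (-25.2 ± 49.2) and Laptm5 (-60.5 ± 55.0) were near or within 1 SE of 0, and that of Mpeg1 was 89.2 ± 33.8 (limma adjusted p = 0.9999). The WT levels from which the genes start are 2.25 to 6.04 times as high in hippocampus, so an equal step in intensity is a smaller step in log2.

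**Figure D3:**
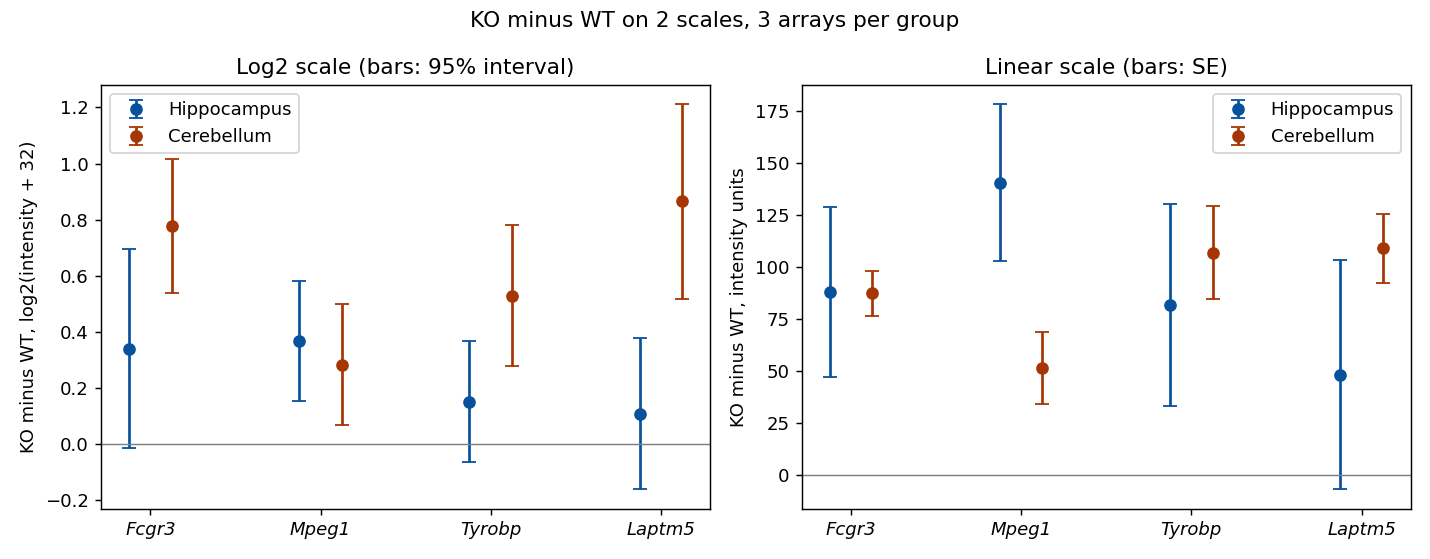
KO minus WT for each gene (x axis) in hippocampus (blue) and cerebellum (orange), in log2(intensity + 32) with 95% intervals (left) and in intensity units with SE (right), from 3 arrays per group. Fcgr3 has 0.34 and 0.78 on the left, with intervals that overlap, and 88.1 and 87.2 on the right, where the difference has an SE of 41.6.

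The 4 genes varied together across arrays, and less so once the group means were removed. With the mean of each region removed, Pearson's r over the 12 arrays ran from 0.58 for Mpeg1 with Laptm5 to 0.91 for Tyrobp with Laptm5. With the mean of each of the 4 groups removed, it ran from -0.21 for Mpeg1 with Laptm5 to 0.50 for Tyrobp with Laptm5 and for Fcgr3 with Laptm5. These are descriptions: the 4 genes were measured on the same arrays, and a genotype difference chose the genes.

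Of 448 other genes that could be named and were measured in both regions, the 6 whose values were most like the mean of the 4 genes, with region means removed, included Gfap, C1qb, Maob, Bmpr1b and Gsta4. Pearson's r over 12 arrays was 0.98 for Gfap, the intermediate filament of astrocytes, and 0.97 for C1qb, a chain of the first complement component that microglia make. It was 0.96 for Maob, monoamine oxidase B. The receptor gene Bmpr1b had 0.95 and the glutathione transferase gene Gsta4 had 0.94. These 5 were in the authors' cerebellum list, and so had been chosen on the same contrast. In hippocampus the Gfap probe set of this ranking had a log2 change of 0.66 ± 0.08 (SE). The brightest named probe set of Gfap had 0.34 ± 0.19 there, with KO arrays not all above the WT arrays. The profiles nearest to single genes differed: C1qb for Tyrobp (0.97), Glul, the glutamine synthetase of astrocytes, for Laptm5 (0.94) and Etnppl, a phospholyase of phosphoethanolamine, for Mpeg1 (0.97). Etnppl had a log2 change of 1.77 ± 0.30 (SE) in hippocampus and 1.55 ± 0.21 in cerebellum, and like Mpeg1 it was no lower in hippocampus. Etnppl was in the authors' hippocampus list and not in their cerebellum list, so its choice favours this order. Mpeg1 was in both lists.

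**Figure D4:**
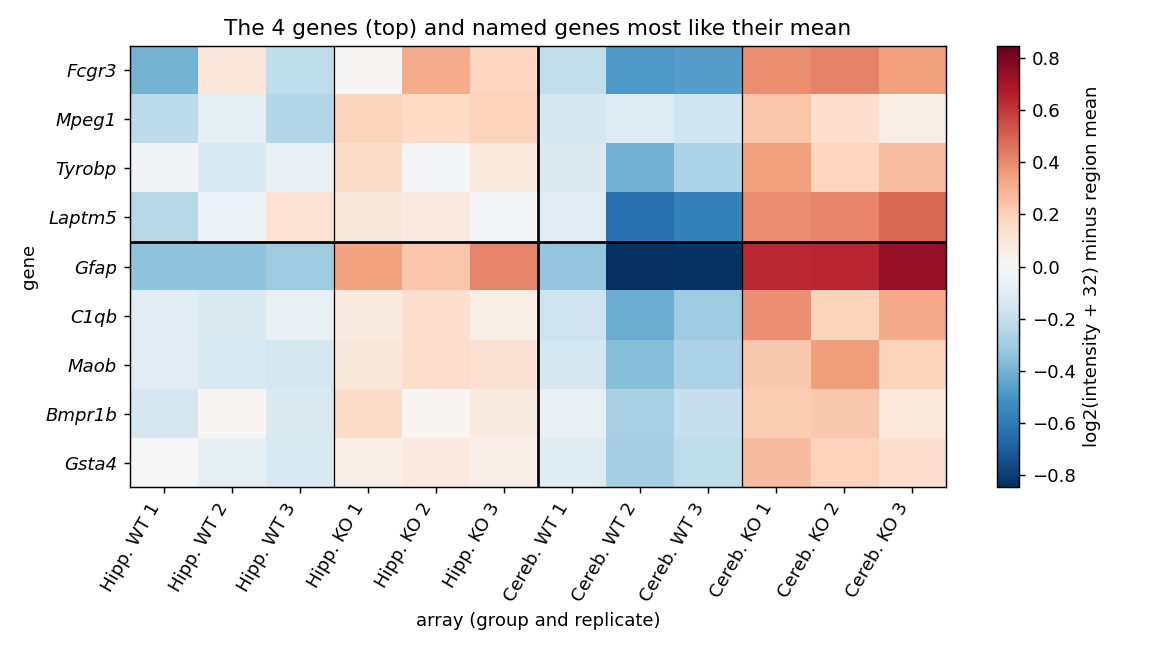
Log2(intensity + 32) minus the mean of the region (colour) for the 4 genes and the 5 named genes above (rows) on the 12 arrays (columns). In cerebellum every KO array is redder than every WT array in each row, and WT replicate 1 is paler than WT replicates 2 and 3 except for Mpeg1. In hippocampus KO and WT overlap for Fcgr3, Laptm5 and Bmpr1b.

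Other genes of microglia and of the lysosome could be counted only where the authors' lists name them. Of 16 microglia markers 5 had a name. In hippocampus 4 were higher and 1 lower in KO, where 52.6% of all probe sets were above 0. The median log2 change of the 5 was 0.25. None passed (0 of 5). The protease gene Ctss had 0.25 ± 0.06 and the complement gene C1qc 0.37 ± 0.10 (SE), both with every KO array above every WT array. Such a separation was found for 2 of the 5 markers and for 4.48% of all probe sets tested in hippocampus. The authors listed C1qc for hippocampus, so its value there describes its choice, and it enters this median and the sum that follows. The brightest named probe set of C1qb had -0.06 ± 0.10 and the one of the likeness ranking had 0.18 ± 0.09. The summed intensity of the 5 markers ran from 10300 to 10902 on KO arrays and from 8653 to 9875 on WT arrays. In cerebellum all 5, which were listed for that contrast, had log2 changes above 0, with a median of 0.96 and summed intensities from 3339 to 3772 in KO and from 1635 to 2103 in WT. The summed intensity of the named markers thus separated KO from WT arrays in both regions, as Mpeg1 and Tyrobp did. In cerebellum the choice of all these genes favours this, as does that of Mpeg1 and C1qc in hippocampus.

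Of 22 genes of lysosome and phagosome 6 had a name, all chosen in cerebellum and none in hippocampus (0 of 6). In hippocampus all 6 had log2 changes above 0, as did 52.6% of all probe sets. The median of the 6 was 0.22, beside 0.01 over all probe sets, and none passed (0 of 6). Grn, the progranulin gene, had 0.23 ± 0.07, and the fucosidase genes Fuca1 and Fuca2 had 0.23 ± 0.09 and 0.21 ± 0.10 (SE, n = 3 per group). Every KO array was above every WT array for 4 of the 6, and for 4.48% of all probe sets tested in hippocampus. In cerebellum the median was 0.39. Of 20 genes of Tyrobp and Fc receptor signalling, among them Trem2, Syk and Fcer1g, 0 had a name, so the partners of Tyrobp and Fcgr3 were not analysed here.

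Of the named markers of other cells none passed in either region. In cerebellum most had a name because the authors listed them there (4 of 5 astrocyte, 3 of 4 myelin and 2 of 2 meningeal markers). For hippocampus the authors listed 3 of 5 astrocyte, 1 of 4 myelin and 0 of 2 meningeal markers. The values of listed markers describe their choice. Of 12 astrocyte markers 5 had a name. In each region 4 of 5 were higher, beside 52.6% (hippocampus) and 45% (cerebellum) of all probe sets. The 5 had a median log2 change of 0.34 in hippocampus and 0.79 in cerebellum. Their summed intensity ran from 17925 to 18924 in KO and from 17229 to 17553 in WT hippocampus, and from 11991 to 13184 in KO and from 8826 to 9930 in WT cerebellum. The 4 named of 12 myelin genes had a median of -0.33 in hippocampus and 0.33 in cerebellum, with sums from 11606 to 12111 in KO and from 12273 to 17365 in WT hippocampus, and from 11055 to 13215 in KO and from 8262 to 9563 in WT cerebellum. The 2 named of 7 markers of meningeal fibroblasts had a median of -0.02 and 0.52, with sums from 953 to 1651 in KO and from 980 to 1552 in WT hippocampus, and from 983 to 1139 in KO and from 731 to 814 in WT cerebellum. Alas2 of red blood cells, 1 of 5 markers, had -0.64 ± 0.25 in hippocampus and -0.54 ± 0.14 in cerebellum, where the authors listed it. Ighm of lymphocytes, 1 of 6, had -0.84 ± 0.11 in hippocampus, for which it was listed. Of 6 markers of border macrophages and 6 of monocytes and neutrophils 0 had a name, so cells of these kinds, which also carry the 4 transcripts, were not assessed. The part of any of these cells in the differences of the 4 genes was not tested.

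Each gene rests on 1 probe set, and other probe sets of the same genes carry no name here. The ending x_at of the Laptm5 probe set is the maker's mark for probes that may bind other transcripts, and Fcgr3 has close relatives among the Fc receptor genes. Cross-hybridization was not tested.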

How the data were processed

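The deposited values are linear intensities, made by the authors with dChip per the series' design text. Its version and its background and normalization steps were not given in the sources used here. Values in the matrix of the whole series equal those in the authors' deposited region tables (largest difference 0), no sample column was left unused (0) and no pair of arrays was identical (0). The authors' deposited short lists give a fold change, which is a signed score made from group means, and an unadjusted p-value; 538 of the 610 probe sets they name could be matched to a single symbol of RefSeq GRCm38.p6.

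Values were analysed as log2(value + 32), so fold changes of dim probe sets are understated. Control probe sets were left out. Probe sets with a mean above the 40th percentile of a region were tested (27022 in each region, 23283 in both) with limma 3.58.1 in R 4.3.3 (lmFit, then eBayes with trend), and p-values were adjusted by Benjamini-Hochberg with a threshold of 0.05. All 4 members passed the filter in both regions. The genotypes were compared inside a region, and the difference of the 2 effects in 1 fit over 12 arrays. SE and 95% intervals of log2 changes are from limma. Per the series' design text, both regions came from the same 3 KO mice and 3 WT mice. No label ties equal replicate numbers to 1 mouse, so the fit treated arrays as independent. In data simulated from the hippocampus values of 27022 probe sets, the test called 64% of probe sets given a change of 1 on the log2 scale and 3% of those given 0.5. For cerebellum it was 60% and 5%.

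All members are named. For likeness, the 6 named genes with the highest Pearson's r were taken, the best probe set standing for a gene; 1 of them is not reported here. In 15 gene lists the brightest named probe set stood for a gene, and up to 4 members with the smallest p were to be named; where fewer are named the rest are given by counts. Lists of disease-associated microglia (1 of 16 genes named), complement (5 of 11), neurons (0 of 13), endothelium (0 of 9) and choroid plexus (0 of 5) are given only here or in the closing section. The members and lists were chosen with earlier results of these data known. Alternatives changed the pseudocount, filter, normalization, trend, block, scale and arrays used. Tables and exact tests were made in Python 3.11.15 with pandas 2.3.3, SciPy 1.17.1 and NumPy 2.4.6, and plots with matplotlib 3.10.9.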

Additional observations from a re-analysis of the deposited data

Results flagged for a closer look

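The KO effect of 1 probe set of the whole array differed between the regions by the test of that difference, and it belongs to none of the 4 genes. Ctss, the gene of cathepsin S, had log2 changes of 0.25 (hippocampus) and 1.13 (cerebellum). They differed by -0.88 ± 0.10 (SE) with a limma adjusted p of 0.0306. This call was lost in 10 of 12 fits that left out 1 array (adjusted p from 0.0335 to 0.205 over the 12), and also with the larger pseudocount, without a filter, without an intensity trend, on the linear scale and with the replicate number as a block (adjusted p = 0.281). Ctss was in the authors' cerebellum list, so this difference is favoured by its choice.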

How the results depend on the processing

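The log2 changes of the 4 genes kept their sign in both regions under every alternative run. None passed at an adjusted limma p under 0.05 except Laptm5 in cerebellum, the contrast it was chosen on, in 1 fit over all 12 arrays (log2 change 0.87, adjusted p = 0.0464). In that fit 6 probe sets passed in hippocampus and 34 in cerebellum against 0 and 0. By Welch's unequal-variance p on linear values, the kind of p the authors' lists rest on, unadjusted at 0.05, 857 probe sets and 1 of the 4 genes passed in hippocampus and 944 and 4 in cerebellum. With each array left out in turn, 0 to 4 probe sets passed in hippocampus, 0 to 3 in cerebellum and 0 to 4 for the difference between regions, and 0 of the 4 genes passed in any. The median of the 4 genes then ran from 0.20 to 0.27 in hippocampus, from 0.59 to 0.73 in cerebellum and from -0.49 to -0.35 for the difference. Within the side of the hippocampus arrays with KO 1, KO 3 and WT 1 the median was 0.34 against 0.25 over all arrays; each side has 1 array of 1 genotype, and the cause was not tested. The larger pseudocount tried, which shrinks dim probe sets by construction, gave a median of 0.44 in cerebellum and -0.24 for the difference. For the difference 2 probe sets passed with a pseudocount of 1, and 0 passed with the larger pseudocount, without a filter, without an intensity trend and on the linear scale, against 1. The difference of Mpeg1 turned from 0.08 to -0.0047 with quantile normalization, and that of Fcgr3 from -0.44 on the log2 scale to 0.89 intensity units on the linear scale. The linear scale was chosen after seeing the data. With the replicate number as a block 0, 0 and 1 probe sets passed, but the 1 for the difference was not Ctss. With equal numbers taken as 1 mouse (a random block), the difference between regions again had 1 probe set and 0 of the 4 genes past the threshold. The numbers were not taken to pair the samples: deviations of KO and WT arrays with the same number correlated at 0.68, 0.31 and -0.50 in hippocampus and at 0.06, 0.34 and -0.24 in cerebellum, and those of hippocampus and cerebellum with the same number at 0.58, 0.54 and -0.27 in KO and at -0.02, 0.13 and -0.19 in WT. Averaging the probe sets of a gene could not be run, since each gene has 1. With 3 arrays per group, changes near those of Laptm5 and Tyrobp in hippocampus could hardly have been called: in the hippocampus simulation 3% of probe sets changed by 0.5 were.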

Other observations

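Complement genes, of which 5 of 11 had a name, had a median log2 change of 0.37 in hippocampus and 0.93 in cerebellum. The authors listed 2 of the 5 for hippocampus, C1qc and C4b, and 4 for cerebellum, so these medians are favoured by their choice. C4b, a complement component that astrocytes make, had 0.66 ± 0.10 (SE) in hippocampus and 0.27 ± 0.14 in cerebellum, and it was among the 3 genes with values most like those of Mpeg1 (r = 0.95 over 12 arrays, region means removed). Serping1, the inhibitor of the first complement component, had 0.37 ± 0.14 and 0.48 ± 0.11. None of them passed (0 of 5 in each region).

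B2m, the light chain of class I histocompatibility molecules and the 1 named gene of disease-associated microglia, had 0.28 ± 0.08 in hippocampus, where the authors listed it, and 0.37 ± 0.13 in cerebellum, where they did not. Its KO arrays were above its WT arrays in both regions. Over the 23283 probe sets measured in both regions, 0.825% had this separation in both, among them Mpeg1 and Tyrobp.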
